A study of Caenorhabditis elegans with 18 samples.

Results

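LK35 and LK38 are small molecules, known by these code names, that the study selected from a screen for compounds protecting *Caenorhabditis elegans* from bacterial infection and treats as structurally related. Their transcriptional responses were set directly against each other, with all 3 LK35 arrays (A, B and C) and all 3 LK38 arrays (A, B and C), 6 of the 18 arrays in the series. The 3 DMSO arrays give the level of each gene without compound, and 3 other compounds (LK32, LK34 and LK56) make up the rest. All 3 groups were wild-type N2 worms, grown from synchronized larvae for 56 h at 22°C to young adulthood on *Escherichia coli* OP50 and then held in liquid S Basal with the same food, 6000 worms to a well. LK35 worms received LK35 at 100 µM, LK38 worms received LK38 at 100 µM and control worms received the matching amount of DMSO, each for 8 h. No pathogen was present, so dose, time and culture were matched and only 1 pair of compounds was compared. RNA came from whole worms, so a change of level within a tissue and a change in the share of that tissue cannot be told apart.

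Worms meet foreign chemicals with a detoxification program that acts largely in the intestine. In phase I, cytochromes P450 of the *cyp* families oxidize the compound. In phase II, UDP-glucuronosyltransferases (*ugt* genes) attach a sugar and glutathione S-transferases (*gst* genes) attach glutathione, and ABC transporters such as the P-glycoproteins (*pgp* genes) export the products. The *cyp-35* subfamily is widely used as a read-out of xenobiotic exposure in this animal. Many of these genes have close relatives whose transcripts can bind the same probes, so a value for one member of the *cyp-35A*, *cyp-35B*, *oac*, T16G1 or *lips* families may hold signal from another, above all for probe sets whose names end in _s_at or _x_at.

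Each array reports intensities summarized by GCRMA, a method that corrects background and normalizes arrays to each other, on a linear scale with a floor of 4.605. Of the values on these 9 arrays, 47.2% to 49.4% lay at the floor, and 8162 of 22548 probe sets lay there on every array of the series. Over the 9033 brighter probe sets, those above an intensity of 32 on at least 3 arrays, the median of an array lay between 356.8 (LK35 A) and 456.6 (LK35 B). The mean correlation of an array with the others of its group was lowest for LK38 C (0.9537) and LK35 A (0.9581), and 0.9785 to 0.9857 for DMSO. Differences are given as LK35 minus LK38 on the log2 scale with the standard error (SE) of limma, so a negative value is a lower level with LK35, and a probe set was called at an adjusted p under 0.05 (Benjamini-Hochberg) and a difference of at least 2-fold. The sources give 3 arrays per condition, lettered A to C, without saying whether they came from separate cultures, so p values measure only the spread between these samples, which may be technical.

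The calls ran in 1 direction. In all, 43 probe sets of 41 genes were called lower with LK35 than with LK38 (0.191% of those tested), and limma called 0 higher with LK35 (0%). At an unadjusted p under 0.05, 99 probe sets were higher (0.439%) and 481 lower (2.13%) with LK35, of which 13 and 176 passed 2-fold. For all 43 the 3 LK35 arrays lay below the 3 LK38 arrays, an order that calls made on the same values favour. Among the 9033 brighter probe sets this order held for 273, and the 3 LK35 arrays lay above the 3 LK38 arrays for 250. Of the 43, 39 were also called higher with LK38 than with DMSO, and 36 were not called with LK35 against DMSO, though the comparisons with DMSO share the same control arrays. With 4 residual degrees of freedom from the 6 arrays of LK35 and LK38 alone, 0 probe sets were called, while 83 were lower with LK35 at an unadjusted p under 0.05 and 2-fold. The spread of the remaining groups enters every p below. Groups wholly at the floor have no spread, which lowers the SE and p. This applies most to *cyp-14A4* and *cyp-35A1*, at the floor on all arrays but those of LK38.

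**Figure D1:**
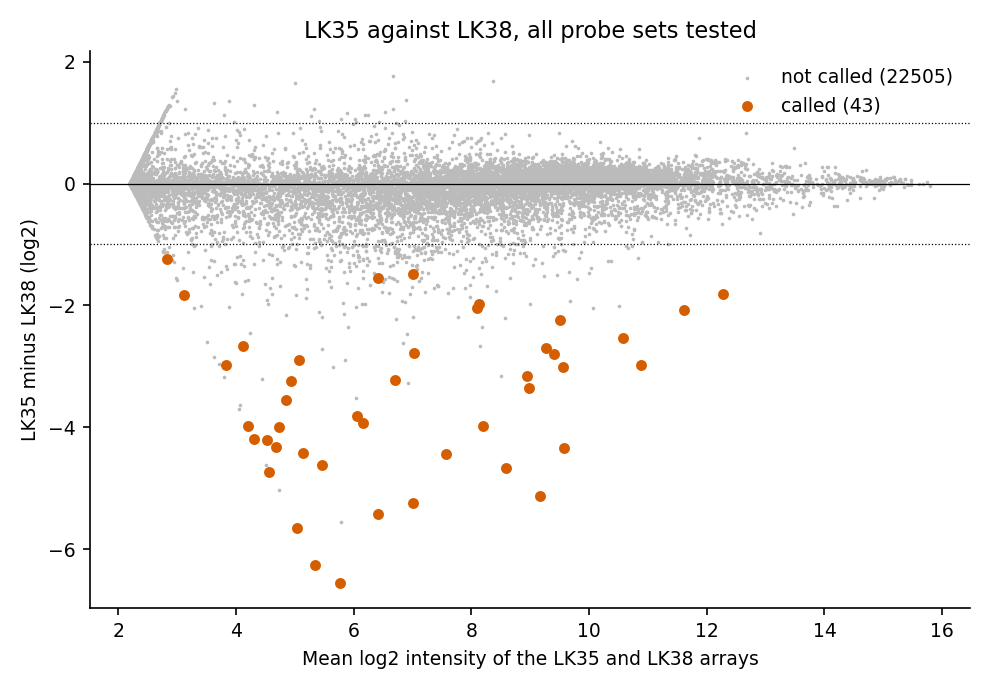
LK35 minus LK38 (log2, vertical axis) against the mean log2 intensity of both groups (horizontal axis) for the 22548 probe sets tested. Each point is a probe set, dotted lines mark 2-fold, and the 43 called (orange) all lie below the line at 0.

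The *cyp-35* cytochromes P450 made up the clearest group. Of 11 *cyp-35* probe sets, 8 were called lower with LK35, against 0.191% of all probe sets, and 0 higher. Among the 9 brighter ones the median difference was -4.73, against -0.0058 over all brighter probe sets. For each of the 9 the 3 LK35 arrays lay below the 3 LK38 arrays, as for 273 of all 9033 brighter probe sets. A probe set at the floor on all arrays but those of LK38, such as *cyp-35A1*, counts as brighter through LK38 alone. The filter thus favours a negative median and this order, so both only describe the 9 and lend the calls no weight. *cyp-35B1* (189366_at) had intensities of 4.95, 7.46 and 4.77 on LK35 arrays A, B and C, 881, 555 and 296 on LK38 arrays A, B and C, and 5.35, 4.95 and 4.95 on the DMSO arrays. LK35 arrays thus lay with the DMSO arrays near the floor, so the measured fold, 93.7 lower with LK35 than with LK38, is a lower bound in effect (log2 difference -6.55 ± 0.40, adjusted p = 4.2e-06, and -4.64 with an offset of 16 added to all intensities). *cyp-35B2* (189256_at) lay at the floor on every LK35 array and every DMSO array, while LK38 arrays had 329.7, 328 and 118, at least 50.7-fold higher (adjusted p = 5.1e-05). *cyp-35A1* (185525_at) also lay at the floor on all LK35 and all DMSO arrays and had 75.5, 50.3 and 478 with LK38, where array C was the highest. Its level with LK35 was at least 26.5-fold lower (log2 difference -4.73, adjusted p = 2.3e-03), and the difference was -3.74 without LK38 C and -5.37 without LK38 B. The call ended with an offset of 16 (-2.81, adjusted p = 0.061). The floor was likewise reached on all LK35 and DMSO arrays by *cyp-35A5* (189394_at), which had 75.3, 59.6 and 135 with LK38, at least 18.4-fold more (adjusted p = 5.5e-05).

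A response to LK35 was measured for some *cyp-35* genes, at a lower level than with LK38 (the list is given whole, so some of its members were chosen after their values were seen). *cyp-35C1* had 112, 55.1 and 147 with LK35, 1912, 2525 and 7977 with LK38, against 8.85, 8.32 and 7.19 with DMSO (189283_s_at). It was called higher than DMSO with LK35 (log2 difference 3.58, adjusted p = 6.7e-03) and with LK38 (8.71, adjusted p = 6.1e-06), and the pair differed by -5.13 ± 0.64 (adjusted p = 2.9e-03). A separate probe set for the gene (189282_at) gave -5.24 ± 0.67 (adjusted p = 3.4e-03), with 34.7, 11.3 and 23.6 with LK35, 425, 602 and 1952 with LK38, against 11.3 or less with DMSO. This second probe set was not called against DMSO with LK35, so the gene's response to LK35 rests on the first. Without LK38 C, the highest array for both probe sets, the differences between the compounds were -4.50 and -4.59. *cyp-35A2* (189512_at) followed the same order, with 163, 358 and 288 with LK35, 2064, 1483 and 1846 with LK38, against 129, 63.4 and 99.8 with DMSO. Here LK35 was 6.95-fold below LK38 (adjusted p = 3.7e-03) and above DMSO by 1.45 on the log2 scale (adjusted p = 0.046). *cyp-35A3* (189304_at) had 7.61 on every LK35 array, 217, 231 and 86.8 with LK38, against 7.61 or less with DMSO, a difference of -4.42 ± 0.27 (adjusted p = 4.2e-06). Since 7.61 was also reached with DMSO, it is a background value, and this difference is a lower bound in effect (-2.94 with an offset of 16). The remaining 3 probe sets were not called: *cyp-35A4* (189409_at) lay at the floor with LK35 and had 108, 88.5 and 22.8 with LK38 (adjusted p = 0.22), *cyp-35B3* (189398_at) exceeded the floor on LK38 array C alone (10.8), and *cyp-35D1* (189405_at) lay at the floor throughout. Without LK38 C, *cyp-35A4* passed too (-4.41, adjusted p = 0.045). Against DMSO, 2 of the 11 were called higher with LK35 (0.993% of all probe sets) and 9 with LK38 (1.57% of all), and 0 were called lower with either compound (1.15% of all with LK35 and 0.75% with LK38).

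**Figure D2:**
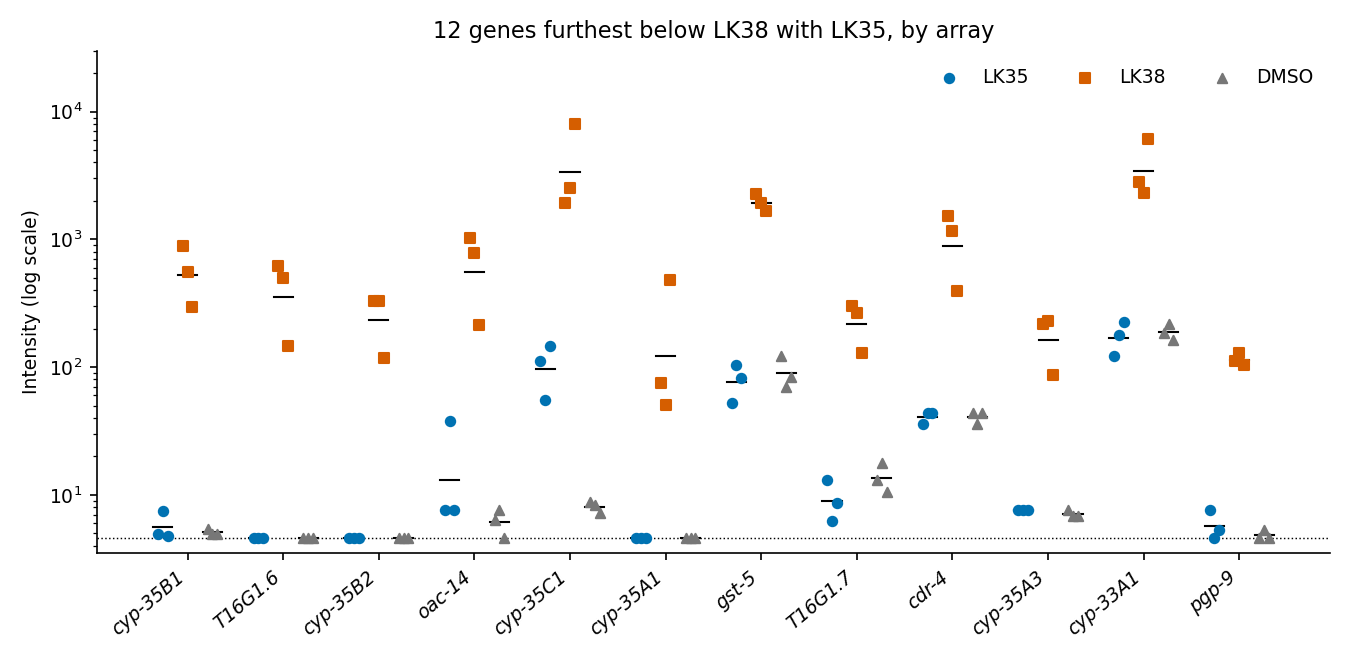
Intensity (log axis) of the 12 genes with the lowest LK35 minus LK38, for LK35 (circles), LK38 (squares) and DMSO (triangles), 1 point per array. Bars are geometric means and the dotted line is the floor of 4.605. LK35 points lie near the DMSO points for most of these genes, while every LK38 array lies above every LK35 array.

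Other cytochromes P450 differed in the same direction. Of 69 probe sets outside *cyp-35*, 5 were called lower with LK35 (7.25%, against 0.191% of all) and 0 higher. At an unadjusted p under 0.05, 21 were lower (30.4%, against 2.13% of all) and 1 higher. The 24 brighter ones had a median difference of -1.51 and ranged between -4.34 and 0.39. *cyp-14A4* is among them through its LK38 arrays alone, so the brightness filter favours a negative median here too. *cyp-33A1* (189430_at) had 121, 177 and 227 with LK35, 2809, 2320.5 and 6136 with LK38, against 186, 219 and 163 with DMSO. LK35 arrays overlapped the DMSO arrays and lay 20.2-fold below LK38 (-4.34 ± 0.35, adjusted p = 5.1e-05). *cyp-14A4* (189218_at) was at the floor on all arrays of LK35 and DMSO and had 95.5, 70.2 and 58.1 with LK38, at least 15.9-fold more (adjusted p = 1.9e-09). That limma p rests on groups without spread, and with the 6 arrays of LK35 and LK38 alone the adjusted p was 0.074. *cyp-29A2* (189350_at) had 10.1, 29.8 and 18.7 with LK35, 541, 220 and 131 with LK38, against 40.3, 20.5 and 53.1 with DMSO (-3.81 ± 0.56, adjusted p = 9.8e-03). In *cyp-33C7* (189309_at), which had 7.35, 10.8 and 7.35 with LK35, 236, 136 and 30.1 with LK38, against 9.5 or less with DMSO, the difference was -3.56 ± 0.56 (adjusted p = 0.019). The call of *cyp-29A2* ended without LK35 A, and that of *cyp-33C7* without any 1 of LK35 A, LK35 C, LK38 A and LK38 B. Over the 9 fits that leave out 1 array the differences lay between -4.28 and -3.25 for *cyp-29A2* and between -4.42 (without LK38 C) and -2.93 (without LK38 A) for *cyp-33C7*, which also lost its call with an offset of 16 (-2.30, adjusted p = 0.079). *cyp-25A2* (189163_at), chosen after its values were seen as the fifth of these calls, had 80.4, 328 and 146 with LK35, 2042, 2189 and 939.5 with LK38, against 349.9, 349.9 and 389 with DMSO. LK35 arrays lay below every DMSO array and LK38 arrays above them, and the pair differed by -3.36 ± 0.46 (adjusted p = 5.8e-03). Levels above LK38 were seen with LK35 for *cyp-37B1* (189221_at), also chosen afterwards, at 3415, 3071 and 3133 with LK35 and 2575, 2481 and 2285 with LK38, but this did not pass (0.39, adjusted p = 1).

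Conjugating enzymes gave fewer calls. Of 68 UDP-glucuronosyltransferase probe sets, 4 were called lower with LK35 (5.88%, against 0.191% of all) and 0 higher. At an unadjusted p under 0.05, 14 were lower (20.6%, against 2.13% of all) and 1 higher. The median of the 25 brighter ones was -0.71. *ugt-61* (190651_at) had 4.76, 11.3 and 5.45 with LK35, 172, 152 and 45.4 with LK38 and 11.3 on every DMSO array (-3.99 ± 0.54, adjusted p = 5.3e-03, and -4.60 without LK38 C). *ugt-1* (190879_at) stood on both sides of its level without compound, with 11.7, 20.4 and 25.5 with LK35, 351, 305 and 204 with LK38, against 117, 97 and 114 with DMSO. It was called lower than DMSO with LK35 (-2.58, adjusted p = 6.2e-03), was not called with LK38 (1.36, adjusted p = 0.16), and differed by -3.94 ± 0.45 between the compounds (adjusted p = 1.6e-03). *ugt-41* (190849_at) had 12.9, 9.01 and 8.24 with LK35, 93.9, 126 and 69.3 with LK38, against 7.8 or less with DMSO, a 9.48-fold lower level with LK35 (adjusted p = 5.1e-05). *ugt-21* (191251_at), at 18.1, 14.7 and 16.5 with LK38 and at the floor on the LK35 and DMSO arrays, was at least 3.55-fold lower with LK35 (adjusted p = 1.4e-09, and 0.074 with the 6 arrays of LK35 and LK38 alone). Its LK38 levels lay under an intensity of 32 and the difference was under 2-fold with an offset of 16 (-0.65). One member ran the other way without passing: *ugt-6* (191057_s_at), chosen after its values were seen, had 53.7, 162 and 166 with LK35, 65.8, 63 and 48.4 with LK38, against 24.3 or less with DMSO (0.95 ± 0.32, adjusted p = 1). It was called only without LK35 A.

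Of 46 glutathione S-transferase probe sets, 4 were lower (8.7%, against 2.13% of all) and 1 higher with LK35 at an unadjusted p under 0.05. Only 1 was called (2.17%, against 0.191% of all). That 1 was *gst-5* (192820_at), with 52, 103 and 82.8 with LK35, 2284, 1917 and 1654 with LK38, against 121, 70.1 and 84.3 with DMSO. LK35 arrays overlapped those of DMSO and lay 25.4-fold below LK38 (-4.66 ± 0.35, adjusted p = 2.9e-05). The gene is also a member of the SKN-1 phase II list (13 probe sets, 1 or 7.69% called), where SKN-1 is the transcription factor that directs much of phase II detoxification. *gst-4* (192407_at), the usual reporter of that factor, stayed at or below an intensity of 16.1 on all 9 arrays, and its difference of -0.67 had a 95% interval between -1.61 and 0.28. *gst-10* (187084_at) had 290.3, 459 and 425 with LK35, 429.7, 294 and 433 with LK38, against 14.1, 7.41 and 15.4 with DMSO. Both compounds thus raised it, by 5.03 with LK35 and 5.02 with LK38 in log2 units, with adjusted p of 3.1e-05 and 1.9e-05, and the pair's difference of 0.017 had an interval between -0.91 and 0.95. Of 60 ABC transporter probe sets, *pgp-9* (193903_at), a P-glycoprotein, was the 1 called (1.67%, against 0.191% of all). It had 7.58, 4.61 and 5.31 with LK35, 111, 128 and 104 with LK38, against 5.31 or less with DMSO. The LK35 level was 20-fold lower (-4.32 ± 0.24, adjusted p = 2.6e-06).

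**Figure D3:**
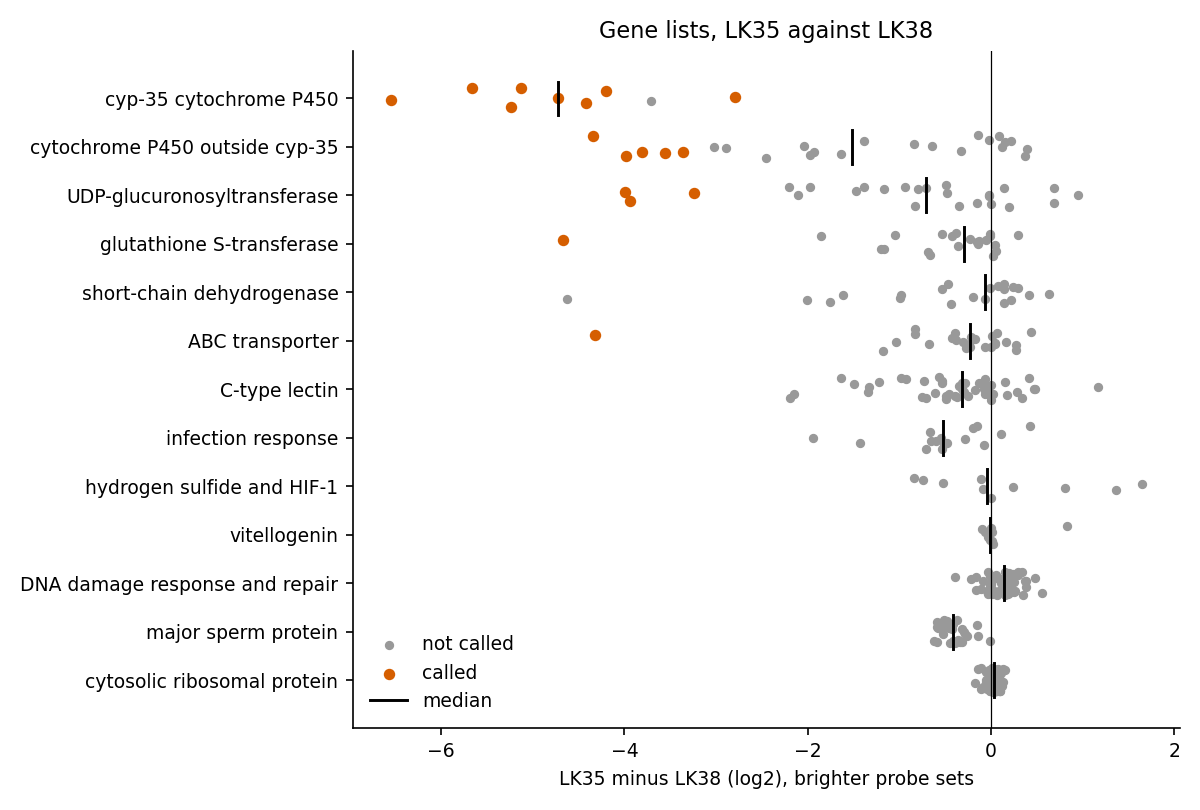
LK35 minus LK38 (log2, horizontal axis) of the brighter probe sets in 13 gene lists, 1 point per probe set, with called members in orange and the list median as a bar. Called members lie in the detoxification lists at the top, and the 90 ribosomal protein probe sets lie between -0.18 and 0.15.

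No short-chain dehydrogenase, a family of reductases, was called by limma among 33 probe sets, while 6 (18.2%, against 2.13% of all) were lower and 0 higher with LK35 at an unadjusted p under 0.05. The lowest of the family was *dhs-23* (188882_at), at the floor on every LK35 array and at 402, 201 and 18.1 with LK38, which was not called (-4.62, adjusted p = 0.079) but passed without LK38 C (-5.95, adjusted p = 1.5e-04). *dhs-20* (191373_s_at) and *dhs-2* (189280_at), chosen after their values were seen, passed the adjusted p but not the fold. *dhs-20* had 309, 318 and 374 with LK35, 647, 609.9 and 738 with LK38, against 132, 135 and 122 with DMSO (a difference just under 2-fold with an SE of 0.17, adjusted p = 0.039). *dhs-2* had 423, 584 and 577 with LK35, 1243, 983 and 908 with LK38, against 298, 231 and 289 with DMSO (-0.99 ± 0.16, adjusted p = 0.028). Both genes therefore stood in the order LK38, LK35, DMSO from high to low. *cytb-5.1* (189019_at), which encodes a cytochrome b5, an electron donor to cytochromes P450 in other animals, and is named after its values were seen, had 2239, 3495 and 2343 with LK35, 11125, 11056 and 6449 with LK38, against 1762, 1663 and 1817 with DMSO. Its difference was -1.81 ± 0.23 (adjusted p = 3.4e-03).

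Beyond the enzymes of drug metabolism, calls were spread over several families. T16G1.6 (178563_at) was far apart too, at the floor with LK35 and with DMSO and at 615, 499 and 146 with LK38, at least 77-fold more (adjusted p = 4.5e-06; the log2 difference was -6.27, and -6.91 without LK38 C). Its neighbour in name, T16G1.7 (179360_s_at), had 13.1, 6.25 and 8.6 with LK35, 303, 266 and 129 with LK38, against 13.1, 17.8 and 10.5 with DMSO (-4.61 ± 0.38, adjusted p = 5.1e-05). Of 63 probe sets of the *oac* family, which encodes O-acyltransferase homologs, *oac-14* (177903_s_at) and *oac-6* (182733_at) were called (3.17%, against 0.191% of all). *oac-14* had 7.6, 37.6 and 7.6 with LK35, 1023, 778 and 215 with LK38, against 7.6 or less with DMSO (-5.42 ± 0.68, adjusted p = 2.9e-03). *oac-6* lay at the floor with LK35 except for array B (7.34), and had 176, 123 and 45.1 with LK38 (-4.21 ± 0.55, adjusted p = 3.8e-03). In both genes B was the highest LK35 array and C the lowest LK38 array, and *oac-14* differed by -6.19 without LK35 B and by -6.11 without LK38 C.

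Metal-responsive and lipid-handling genes followed. *cdr-4* (191871_s_at), which is induced by cadmium, had 35.5, 43.7 and 43.7 with LK35, 1529, 1157 and 397 with LK38, against 43.7, 35.5 and 43.7 with DMSO, so LK35 and DMSO shared the same values while LK38 lay 21.8-fold above LK35 (log2 difference -4.45, adjusted p = 7.1e-04, and -5.03 without LK38 C). *cdr-2* (191541_at) was the other called member of the 18 metallothionein and cadmium-response probe sets (11.1% called, against 0.191% of all). It had 97.8, 141 and 176 with LK35, 575, 457 and 652 with LK38, against 195, 116 and 243 with DMSO (-2.05 ± 0.28, adjusted p = 5.3e-03). *far-3* (193272_s_at), the 1 called of 8 probe sets of fatty acid and retinol binding proteins (12.5%), had 176, 464 and 228 with LK35, 2304, 1991 and 2103 with LK38, against 42, 43.3 and 27.9 with DMSO. Both compounds raised it (2.84 with LK35, adjusted p = 9.7e-05, and 5.85 with LK38, adjusted p = 1.9e-07), and LK35 stayed 8.03-fold below LK38 (adjusted p = 2.7e-04). Both probe sets of *lips-10*, a lipase-related gene, were called among 32 lipase probe sets, 6.25% of that list (-2.90 ± 0.48 for 174404_s_at, adjusted p = 0.024, and -2.67 ± 0.39 for 177829_at, adjusted p = 9.4e-03). The first ranged between 9.15 and 22.1 with LK35 and between 48.5 and 138 with LK38. These calls ended without LK35 A, LK35 C or LK38 B, and for the first also without LK38 A, with differences between -3.36 and -2.61 for the first and between -3.20 and -2.26 for the second over the 9 fits that leave out 1 array.

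Host defense genes were lower with LK35 than with LK38 in a minority of probe sets. Of 47 antimicrobial peptide probe sets, *fipr-24* (172241_x_at), of the fungus-induced peptide family, was the 1 called (2.13%, against 0.191% of all). It had 170, 369 and 224 with LK35, 2555, 1736 and 874 with LK38, against 9.78, 9.78 and 17.8 with DMSO. Both compounds raised it, by 4.34 with LK35 (adjusted p = 9.7e-05) and 7.04 with LK38 (adjusted p = 1.3e-06), and the pair differed by -2.70 ± 0.44 (adjusted p = 0.023), a call that ended without LK35 A, LK35 C, LK38 A or LK38 B (between -3.13 and -2.35 over all 9 such fits). *spp-12* (178599_at), of the saposin-like family (24 probe sets, 4.17% called), was at the floor with LK35 and had 6.92, 16.7 and 11.2 with LK38, values under an intensity of 32 (adjusted p = 0.039, lost without any 1 array other than LK38 A, with differences between -1.57 and -0.93). For C-type lectins (251 probe sets), lysozymes (19), infection response genes (21) and genes of the PMK-1 and ATF-7 pathway (27), limma called 0. At an unadjusted p under 0.05, 10, 2, 3 and 3 of these were lower with LK35 and 2, 1, 0 and 0 higher, in the same order. The lower ones made up 3.98% of the lectins, 10.5% of the lysozymes, 14.3% of the infection response genes and 11.1% of the pathway genes, against 2.13% of all probe sets. *irg-5* (179695_at), a reporter gene for the PMK-1 p38 pathway, had 1320.1, 1703 and 1632 with LK35, 2109, 1832 and 1698 with LK38, against 168, 105 and 87.8 with DMSO. Both compounds raised its RNA by a like amount, 3.74 with LK35 (adjusted p = 2.1e-06) and 4.01 with LK38 (adjusted p = 8.6e-07), and the pair's interval lay between -0.79 and 0.23. In the study's fluorescent reporter of this gene, LK38 gave a modest rise, and LK35 is not named among the activating compounds. That assay was read at a later time and measures fluorescence, so it is not the same measure as RNA at 8 h. *irg-4* (178843_at) had 111, 179 and 157 with LK35, 593, 464 and 220.2 with LK38, against 32.7, 28.6 and 20.1 with DMSO, and the pair's difference of -1.42 ± 0.37 did not pass (adjusted p = 0.55). For 2 members of the pathway, intervals lay between -0.93 and 0.26 for *pmk-1* (191432_at) and between -0.33 and 0.38 for *atf-7* (173892_s_at). They do not stand for the whole list. Its 21 brighter probe sets differed by -1.34 to 0.38, and 11 of them had intervals inside 2-fold.

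The remaining called genes were chosen after their values were seen. F59B1.8 (183263_s_at) had 66.6, 66.6 and 89.6 with LK35, 1254, 1256 and 986 with LK38 and 53.3 on each DMSO array (-3.98 ± 0.40, adjusted p = 4.1e-04). C29F7.2 (178316_at) had 426, 1085 and 647 with LK35, 6537, 5356 and 4263 with LK38, against 522, 288 and 413 with DMSO (-2.99 ± 0.32, adjusted p = 7.1e-04). *vem-1* (188031_s_at), which encodes a membrane-associated heme-binding protein, had 557, 736 and 626 with LK35, 4030.3, 3579 and 3426 with LK38, against 369, 459 and 372 with DMSO (-2.53 ± 0.19, adjusted p = 2.9e-05). LK35 arrays lay above the DMSO arrays for F59B1.8 and *vem-1* and overlapped them for C29F7.2, with none of the 3 called against DMSO. Y105C5B.5 (185106_at) showed another form, with 246, 528 and 293 with LK35, 1933, 1436 and 1437 with LK38, against 1462, 1442 and 1299 with DMSO, so that LK38 stayed near DMSO (0.18, adjusted p = 1) and LK35 fell by 2.06 on the log2 scale (adjusted p = 6.1e-04). F16F9.4 (188201_at) was like it, at 61, 50.8 and 39.1 with LK35, 165, 166 and 111 with LK38, against 105, 124 and 109 with DMSO. LK35 fell by 1.18 on the log2 scale against DMSO (adjusted p = 0.018), the pair differed by -1.55 ± 0.25 (adjusted p = 0.019), and the call ended without LK35 B, LK35 C, LK38 A or LK38 B (between -1.74 and -1.38 over the 9 fits). With *ugt-1*, these were the 3 called genes that were called lower with LK35 than with DMSO. W01A11.1 (189755_at, -2.07, adjusted p = 5.0e-05) and F13D11.4 (193849_at, -3.23, adjusted p = 7.8e-03) kept their calls without any 1 array. C39E9.8 (179110_at, -2.78, adjusted p = 0.016), T19B10.2 (181714_at, -3.16, adjusted p = 0.039), *bcmo-2* (186270_s_at, -2.97, adjusted p = 0.023), C29F3.7 (177487_at, -1.98, adjusted p = 0.018) and *swt-7* (185210_s_at, -1.49, adjusted p = 0.023) lost theirs in at least 2 of the 9 fits that leave out 1 array. The arrays in question were LK35 C, LK38 A and LK38 B for C39E9.8, all but LK35 B and LK38 C for T19B10.2, the 3 of LK35 with LK38 A and LK38 B for *bcmo-2*, LK35 A and LK35 C for C29F3.7, and both of these with LK38 A and LK38 B for *swt-7*. The differences ranged between -3.30 and -2.25 for C39E9.8, between -3.71 and -2.79 for T19B10.2, between -3.74 (without LK38 C) and -2.53 for *bcmo-2*, between -2.31 and -1.63 for C29F3.7 and between -1.59 and -1.36 for *swt-7*. A further probe set for T19B10.2 (181715_s_at) gave the same difference of -3.16 without passing (adjusted p = 0.079).

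Probe sets higher with LK35 rarely passed the adjusted p. The only one past the adjusted p was *mpst-3* (182782_at), which encodes a mercaptopyruvate sulfurtransferase, an enzyme of sulfur metabolism, with 519, 523 and 543 with LK35, 402, 377 and 355 with LK38, against 182, 161 and 171 with DMSO. LK35 arrays all lay above LK38 arrays, but the difference was under 2-fold (0.48 ± 0.060, adjusted p = 2.9e-03), and a separate probe set of the gene (182532_at) gave 0.17 (adjusted p = 1). *sqrd-1* (178043_at), which encodes the sulfide:quinone oxidoreductase that oxidizes hydrogen sulfide, had 49.7, 54 and 68.9 with LK35, 12.7, 18.3 and 25.8 with LK38, against 6.72, 7.38 and 6.45 with DMSO. Its difference of 1.65 ± 0.35 did not pass (adjusted p = 0.17), but did with quantile normalization, with median centring, with an offset of 16 and among the brighter probe sets only. *cysl-2* (188978_s_at), a cysteine synthase-like gene induced by hydrogen sulfide signalling, had 249.7, 124 and 219.5 with LK35, 46.2, 46 and 186 with LK38, against 11.6, 12 and 7.78 with DMSO (1.37 ± 0.47, adjusted p = 1), and passed without LK38 C. Both genes were called higher than DMSO with either compound (*sqrd-1* by 3.06 with LK35 and 1.41 with LK38, adjusted p = 2.6e-04 and 0.045). Over the 16 probe sets of hydrogen sulfide and HIF-1 signalling, 0 were called, 3 were higher and 1 lower with LK35 at an unadjusted p under 0.05, and the median of the 10 brighter ones was -0.045. All 3 genes were chosen after their values were seen.

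Part of the response was of like size with both compounds. For 6718 of the 9033 brighter probe sets (74.4%), the 95% interval of the pair's difference lay inside 2-fold in either direction. Most of these brighter probe sets were not called against DMSO, so that share does not describe the response. The share was smaller among called probe sets. Among the 484 called with LK35 against DMSO the interval lay inside 2-fold for 258, with 7 called between the compounds. Among the 524 called with LK38 against DMSO it did so for 238, with 39 called between the compounds. No probe set was called in opposite directions against DMSO. *pud-4* (186519_at), of a family of proteins first found at raised levels in *daf-2* mutants, had 2890.1, 4598 and 4527 with LK35, 4156, 3347 and 4015 with LK38, against 12.2, 8.61 and 11.9 with DMSO. It was raised by 8.50 with LK35 and 8.47 with LK38 (adjusted p = 1.9e-07 and 1.5e-07), and the pair's interval lay between -0.85 and 0.92. *sysm-1* (178297_at), a PMK-1-dependent gene that the study names as T24B8.5, had 1057, 770.1 and 1156 with LK35, 551, 531 and 1333 with LK38, against 5.99 or less with DMSO, and its interval lay between -0.25 and 1.10. Among genes that fell, *cpr-2* (189469_at), a cathepsin B-like protease, had 4.69, 7.91 and 4.69 with LK35, 6.06, 4.82 and 4.69 with LK38, against 177, 183 and 137 with DMSO (difference 0.12, interval between -0.39 and 0.62). The fasting-induced lipase *fil-1* (188106_at) had 5.17 on every LK35 array, 14.3, 11.8 and 5.17 with LK38, against 517, 383 and 416 with DMSO, falling by 6.40 with LK35 and by 5.51 with LK38 in log2 units, with adjusted p of 3.7e-06 and 1.1e-05. Its interval between the compounds, between -1.83 and 0.057, was too wide to place the difference inside 2-fold. The same held for *sdz-24* (180256_at, interval between -0.79 and 1.91), *dlhd-1* (179815_at, between -0.93 and 2.07), F49E12.10 (190009_at, between -1.06 and 0.27) and D1086.3 (177920_at, between -1.03 and 1.57). F48G7.10 (184636_at) had 4.81, 6.35 and 4.81 with LK35, 37.6, 40.2 and 6.31 with LK38, against 140.2, 172 and 219 with DMSO, and its difference of -2.01 did not pass (adjusted p = 0.81). Such levels were not particular to this pair. With LK34, *pud-4* lay between 3407 and 3950.1, *sysm-1* between 607 and 1120.3 and *cpr-2* between 4.69 and 4.84. D1086.3 was lower with LK34, between 29.5 and 56.9, than on any LK35 or LK38 array.

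**Figure D4:**
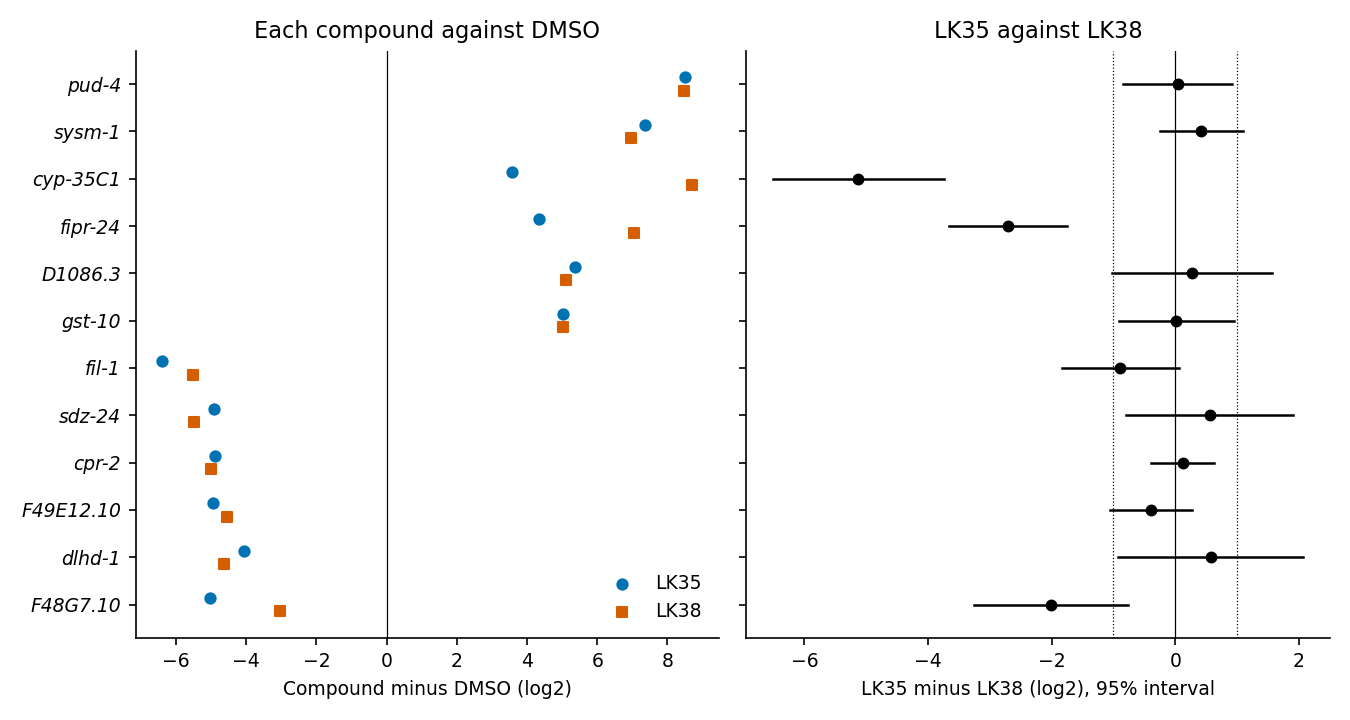
The 12 genes furthest from DMSO with both compounds. The left panel gives LK35 (circles) and LK38 (squares) minus DMSO, and the right panel gives LK35 minus LK38 with its 95% interval (log2, dotted lines at 2-fold). The intervals of *pud-4*, *gst-10* and *cpr-2* lie within 2-fold, and those of *cyp-35C1* and *fipr-24* lie wholly below it.

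DNA damage, yolk, ribosome and stress lists held no call between the compounds. Of 68 DNA damage response and repair probe sets, limma called 0 between the compounds, with 1 higher and 0 lower with LK35 at an unadjusted p under 0.05, and 51 of 58 brighter ones had intervals inside 2-fold (median difference 0.14). None was called against DMSO with LK35 or with LK38. The alkyltransferase genes *agt-1* (185698_at) and *agt-2* (185038_at), which repair alkylated bases, had intervals between -0.31 and 0.33 and between -0.43 and 0.35. Of 10 vitellogenin probe sets, 9 had intervals inside 2-fold, and 0 passed at an unadjusted p under 0.05. The exception, *vit-1* (177065_at), named for that reason, had 12399.7, 5525 and 9564 with LK35, 2570.1, 3428 and 13177 with LK38, against 596, 547 and 532 with DMSO, so the LK38 arrays spanned those of LK35. Ribosomal protein (93 probe sets), proteasome (37), cytosolic heat shock (20), reticulum and mitochondrial stress (29) and cuticle collagen (183) lists had 0 called. At an unadjusted p under 0.05 they held 3 higher with LK35 among the ribosomal protein genes and 0 in either direction in the other 4. In all, 12 of the 55 lists held a called probe set.

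Most called probe sets, though not all, match genes on chromosome V, a feature that the comparison did not use. All 43 probe sets match 1 gene, and 27 of them (62.8%) lie on chromosome V in the RefSeq annotation of assembly WBcel235, against 23.4% of the tested probe sets that match 1 gene. Many *cyp* and *ugt* genes sit there in clusters of relatives, so these are not independent loci. Cytochromes P450 account for 13 of the 43, from 12 genes, and enzymes or transporters of the detoxification lists for 19. On 20 of the 43 all LK35 arrays lay under an intensity of 32, and on 7 all lay at the floor, so those 7 folds are lower bounds, while the other folds in this range are limited by the background as well. The following counts use the same LK35 and LK38 values as the calls, so they describe the called probe sets and nothing is read from their excess. In 21 of the 43, the lowest LK38 array lay above all 15 other arrays of the series, LK32, LK34 and LK56 included (0.213% of all probe sets). *cyp-35A1* and *cyp-14A4* were at the floor on all arrays of these 3 compounds, and *pgp-9* reached 10.9 at most. Others of the 21 were not silent there. *cyp-35C1* (189283_s_at) lay between 1047 and 1236 with LK56, against at least 1912 with LK38 and at most 8.85 with DMSO. A raised level of that gene was therefore not confined to LK38. In 8, the highest LK35 array lay below all 12 arrays of the other 4 compounds (0.297% of all probe sets). For *gst-5* those of LK32, LK34 and LK56 lay between 739.8 and 4912, against at most 103 with LK35, and for *cdr-4* between 74.5 and 2763, against at most 43.7 with LK35. These patterns across compounds were not tested.

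The arrays within each group were not alike, and the unlike ones bear on the counts. LK38 C was the lowest LK38 array for 31 of the 43 called probe sets and the highest for 7, among them *cyp-35A1*, *cyp-35C1* and *cyp-33A1*. Several genes that were low on LK38 C were not called. The lysosomal lipase gene *lipl-1* (187964_at) had 8.25, 13.4 and 4.61 with LK35, 1674, 1094 and 29.2 with LK38, against 8.25 or less with DMSO (-5.56 ± 1.22, adjusted p = 0.19). F25D1.5 (188921_at) was at the floor with LK35 and DMSO and had 596, 401 and 14.5 with LK38 (adjusted p = 0.083). The choice of both, and of *dhs-23*, was made once their values were known. Without LK38 C both passed (adjusted p = 2.3e-04 for *lipl-1* and 4.4e-09 for F25D1.5), and 93 probe sets were called lower and 3 higher with LK35 (*cysl-2*, *cth-1* and F28H7.3). Leaving out any other single array of LK35, LK38 or DMSO gave 33 to 44 lower and 0 or 1 higher.

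Whole gene lists moved with these arrays. Relative to the mean of their group, 32 brighter body wall muscle probe sets had a median of -0.24, 0.34 and -0.11 on LK35 A, B and C and of 0.38, 0.076 and -0.48 on LK38 A, B and C. Neuron markers (12) had -0.36, 0.47 and -0.04 with LK35 and 0.26, 0.16 and -0.33 with LK38. Intestine markers (17) had -0.041, 0.17 and -0.063 with LK35 and 0.092, 0.039 and -0.13 with LK38. Oocyte and eggshell markers (60) went the other way, with 0.0019, -0.16 and 0.074 with LK35 and -0.26, -0.042 and 0.33 with LK38, while 90 ribosomal protein probe sets stayed between -0.02 and 0.0088. On DMSO arrays the medians of these 5 lists lay between -0.097 and 0.16. Between the groups the median difference was -0.32 for muscle, -0.42 for neurons, -0.25 for intestine and 0.22 for oocyte markers, with 0 called in any of them. At an unadjusted p under 0.05, 3 muscle, 2 neuron and 4 intestine probe sets were lower with LK35 and 0 higher. These made up 6.98% of the muscle, 5.26% of the neuron and 21.1% of the intestine probe sets, against 2.13% of all. Of 70 oocyte probe sets, 2 were higher and 0 lower, against 0.439% of all higher. Major sperm protein genes (30 brighter of 31 probe sets) had a median of -2.47 with LK35 and -2.04 with LK38 against DMSO and of -0.42 between the compounds. Of these probe sets 0 were called, and 6 (19.4%, against 2.13% of all) were lower with LK35 at an unadjusted p under 0.05. The brighter *cyp-35* probe sets had a median difference of -4.73, a value that the brightness filter favours. The part of the marker shifts in that or in any called difference was not tested. Leaving out LK35 A and LK38 C together gave 72 called lower and 4 higher with LK35 (*cysl-2*, *cth-1*, *ugt-6* and F14H3.12).

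**Figure D5:**
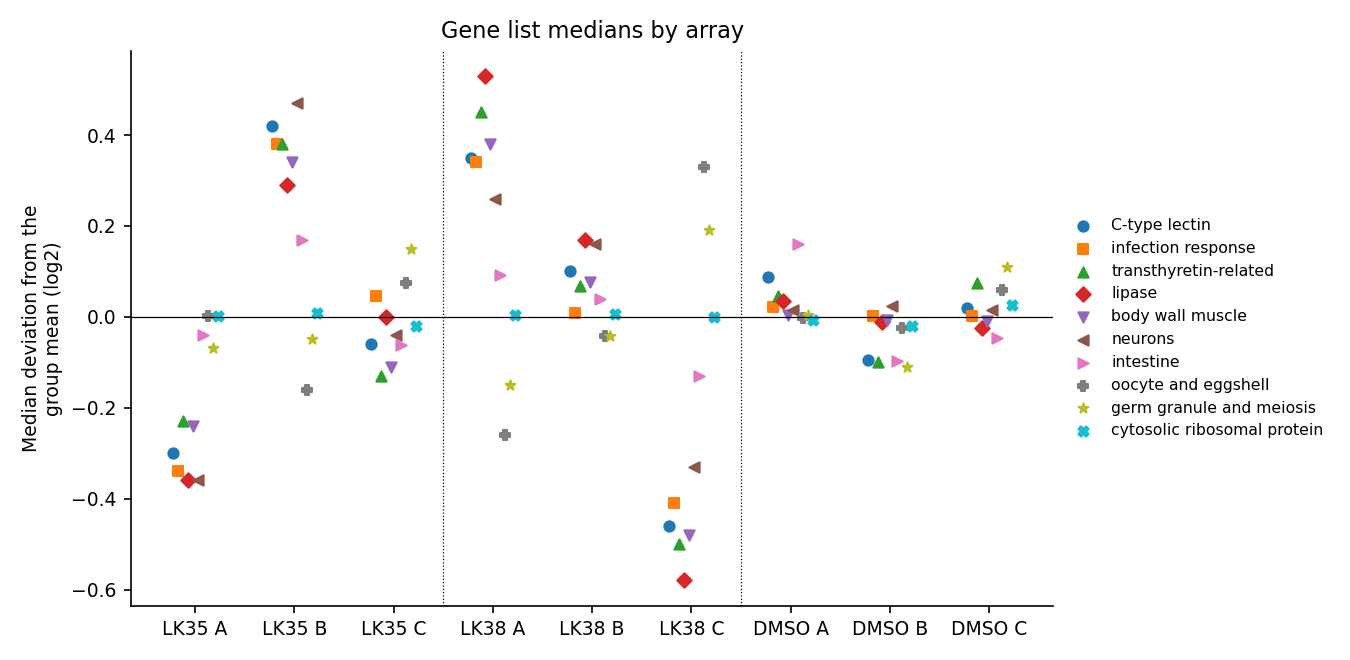
Median deviation (log2, vertical axis) of the brighter probe sets of 10 gene lists from the mean of their own group, for each LK35, LK38 and DMSO array. LK35 A and LK38 C lie low for muscle (-0.24 and -0.48) and neuron (-0.36 and -0.33) markers, where LK35 B and LK38 A lie high.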

How the data were processed

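Whole-worm RNA was hybridized to Affymetrix *C. elegans* arrays, 3 per condition. The authors deposited linear-scale intensities made with GCRMA, whose version is not given in the sources used here. Background correction by probe sequence sets dim probe sets to a common floor, and normalization would hide a change shared by all transcripts. Every one of the 18 columns entered.

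The table holds 22625 probe sets, of which 22548 were tested once the 77 array controls had been removed. Through the platform annotation 20810 match 1 gene, 843 several and 895 none, and 21587 were matched to RefSeq (WBcel235). Log2 intensities of all 18 arrays entered a limma 3.58.1 model (R 4.3.3) that gives each condition its own mean, leaving 12 residual degrees of freedom, and eBayes estimated 0.332 prior degrees. The contrast was LK35 minus LK38, with Benjamini-Hochberg adjustment over all probe sets. A fold is a ratio of geometric means, and against a group wholly at the floor it is a lower bound. The number of arrays limits the precision. The script was tested on simulated data.

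Named genes are the 12 lowest called probe sets of 1 gene at an intensity of at least 64 (none was called higher), up to 4 called members of each of 55 lists, the 6 highest and 6 lowest against DMSO with both compounds, and genes the study names. Others are said to be chosen after their values were seen. The members and lists were chosen with earlier results of these data known. Alternatives covered the arrays fitted, normalization, an offset of 16, dim probe sets, calling rules, array weights, a replicate block and each array left out. Figures used matplotlib 3.10.9 in Python 3.11.15.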

Additional observations from a re-analysis of the deposited data

Results flagged for a closer look

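For 3 of the called genes, all LK35 arrays lay below and all LK38 arrays above every DMSO array, while the difference between the compounds itself passed limma's test. *ugt-1* (190879_at) differed by -3.94 (LK35 minus LK38, log2), with -2.58 for LK35 and 1.36 for LK38 against DMSO. *cyp-25A2* (189163_at) differed by -3.36, with -1.21 for LK35 (adjusted p = 0.25) and 2.15 for LK38 (adjusted p = 0.020). C29F3.7 (177487_at) differed by -1.98, with 103, 222 and 121 with LK35, 410.5, 458 and 913 with LK38, against 303, 293 and 305 with DMSO, where neither compound was called against DMSO (adjusted p = 0.086 with LK35 and 0.18 with LK38). The call of C29F3.7 ended without LK35 A or LK35 C, with differences between -2.31 and -1.63 over all 9 fits that leave out 1 array.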

How the results depend on the processing

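The 43 called probe sets kept their direction under each alternative that gave them a value, where *spp-12*, *bcmo-2* and *ugt-21* were not among the brighter probe sets and so have none there. With an offset of 16, *bcmo-2*, *cyp-33C7*, *cyp-35A1*, *spp-12*, *ugt-21* and 174404_s_at of *lips-10* were no longer called. The count of probe sets higher with LK38 was 0 with the 6 arrays alone, 16 with the 9 arrays of LK35, LK38 and DMSO, 493 with array weights (where the weights did not converge) and 72 without LK35 A and LK38 C. It was 38 to 59 with quantile normalization, median centring, an offset of 16, brighter probe sets only, probe sets of 1 gene only, the replicate block (39), treat at a fold of 1.2, trend and robust eBayes, and no fold limit. The count of probe sets higher with LK35 was 2 with quantile normalization (*sqrd-1* and the probe set shared by *lys-5* and *lys-6*), 3 with median centring (these and *pcp-2*), 1 with an offset of 16 and 1 with brighter probe sets only (*sqrd-1* in both), 1 with no fold limit (*mpst-3*), 126 with array weights and 4 without LK35 A and LK38 C. Leaving out 1 array gave 33 to 93 higher with LK38 and 0 to 3 higher with LK35, and 31 of the 43 calls were kept in all 9 such fits. With the letters as a replicate block, 37 of the 43 calls were kept, but samples of the same letter deviated together for B and C (correlations of 0.471 and 0.473) and not for A (-0.458), so the letters were not taken to pair the samples. The cause of these changes was not tested. The fits of 6 and 9 arrays hold fewer arrays and also leave out the spread of other groups, and these were not separated. Probe sets near the floor have no measurable level below it, so differences there are limited by background.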
